A study of Mus musculus with 6 samples.

Results

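Microglia are the resident macrophages of the brain. They are maintained by signalling through the receptor Csf1r, survey their surroundings with purine and chemokine receptors, and remove debris and synaptic material, which the complement protein C1q can tag. The genes described here are 33 that mark homeostatic microglia or serve complement C1q and phagocytosis, taken from the deposited table by gene symbol. All 33 had 1 row each among 23067 genes. Levels are in FPKM, a value scaled for transcript length and library size, so they can be compared between genes.

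The libraries are from dorsal striatum of mice at postnatal day 21, 3 from wild type (genotype Lrrk2WT/WT) and 3 from homozygous knock-in mice (genotype Lrrk2G2019S/G2019S), whose Lrrk2 kinase gene carries the G2019S change linked to Parkinson's disease. Both groups are titled male, and no treatment is named for either. Neither the strain nor whether a group's samples are separate animals is stated in the sources used here, so p-values reflect only the spread among these libraries, part of which may be technical. The libraries are of whole tissue, in which fewer microglia and less RNA per microglial cell cannot be told apart.

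Some libraries stood apart in ways that touch the results. In knock-in replicate 3, mitochondrial genes took 23.2% of summed FPKM, against 18.0% to 20.5% in the others, and 41.3% of the genes tested lay below all wild-type libraries, against 31.2% and 27.7% in knock-in replicates 1 and 2. Knock-in replicates 1 and 2 held more of Slc17a7, the glutamate transporter gene of cortical excitatory neurons, at 29.9 and 25.2 FPKM, than the other libraries, at 2.73 to 11.0 FPKM. Xist, the RNA of the inactive X chromosome, stood at 27.2 to 39.3 FPKM in all 6 libraries, which goes against the titles in both groups alike. Ddx3y, Eif2s3y, Kdm5d and Uty, genes of the Y chromosome, had no row. The part of these differences in the microglial values was not tested.

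The first question was whether any microglia gene differed between genotypes. Values were compared as log2(FPKM + 1) with limma over the 14156 genes that averaged 1 FPKM or more, and calls were made where the adjusted p was under 0.05. Ptprc alone among the 33 fell short of that level. Of the 32 tested, 0 were called, against 0.0212% of all genes tested. At an unadjusted p under 0.05 in limma, 0 of the 32 passed, against 4.27% of all genes tested. Knock-in means were higher for 11 and lower for 21, a share of 65.6% lower beside 56.4% of all genes tested. The median log2 difference, knock-in minus wild type, was -0.04, beside -0.01 over all genes tested.

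The count of lower genes depended on 1 library. Without knock-in replicate 3, 13 of the 32 were lower and the median was 0.02. For 30 of the 32 genes the 95% interval of the fold, on the log2(FPKM + 1) scale, lay within 1.5-fold in either direction. Cx3cr1 and P2ry12 were the exceptions.

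**Figure D1:**
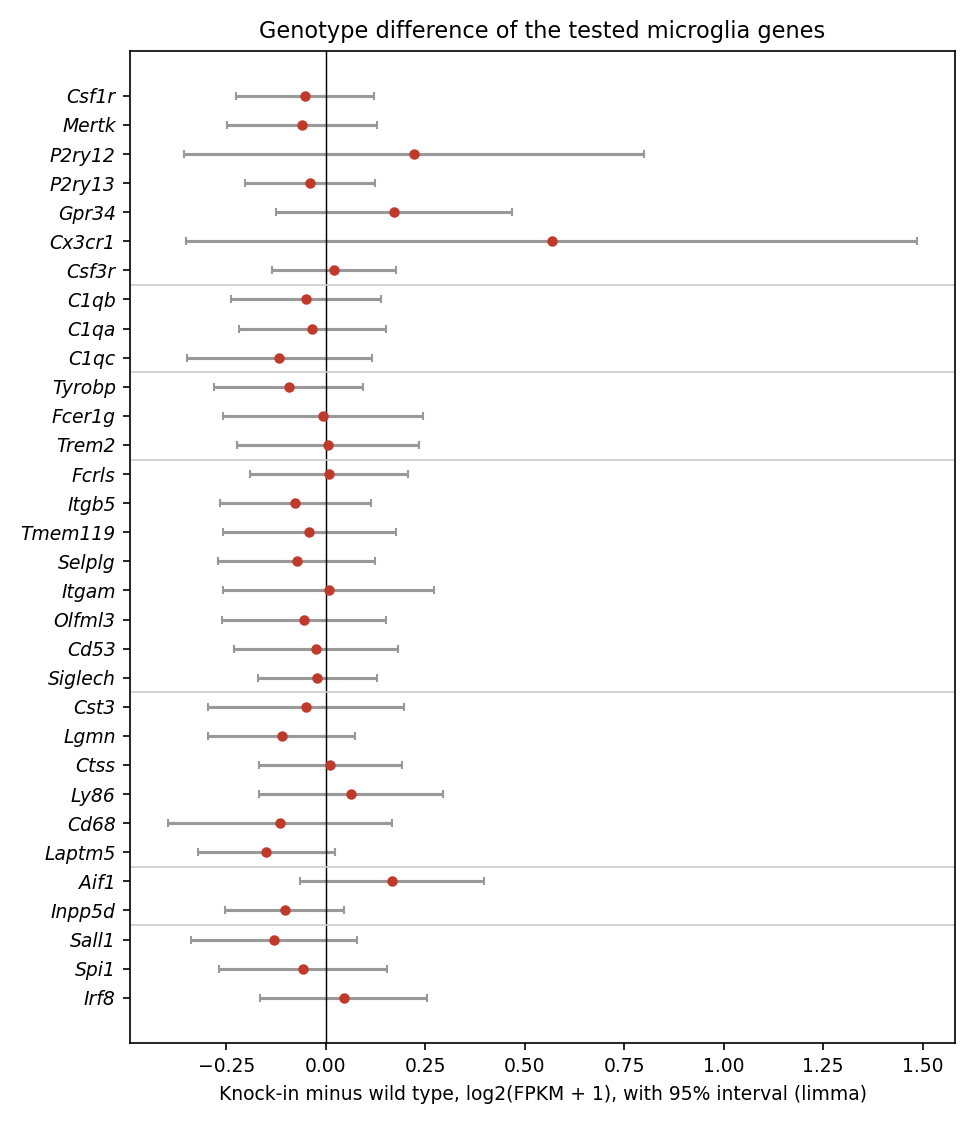
Difference between genotypes for each tested microglia gene, knock-in minus wild type on the log2(FPKM + 1) scale, with 95% intervals from limma and 3 libraries per group. Points lie between -0.15 and 0.57, every interval includes 0, and those of Cx3cr1 and P2ry12 are the widest.

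The genes spanned a wide range of levels, and the tissue held the set as a whole. Cst3, which encodes the secreted protease inhibitor cystatin C and is also made by astrocytes, was the most abundant with a mean of 791 FPKM over the 6 libraries. C1qb, C1qa, Lgmn and Ctss followed at means of 71.8, 68.2, 65.1 and 62.4 FPKM, and the ranges of neighbours in that order overlapped. Csf1r, C1qc and Tyrobp came next at 37.0, 36.3 and 32.4 FPKM, again with overlapping ranges. The transcription factor genes Spi1 and Irf8 were near the bottom at 1.57 and 1.26 FPKM. Ptprc, the pan-leukocyte phosphatase CD45, was lowest at 0.186 to 0.259 FPKM, although CD45 is a defining leukocyte marker that microglia carry at low amounts.

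**Figure D2:**
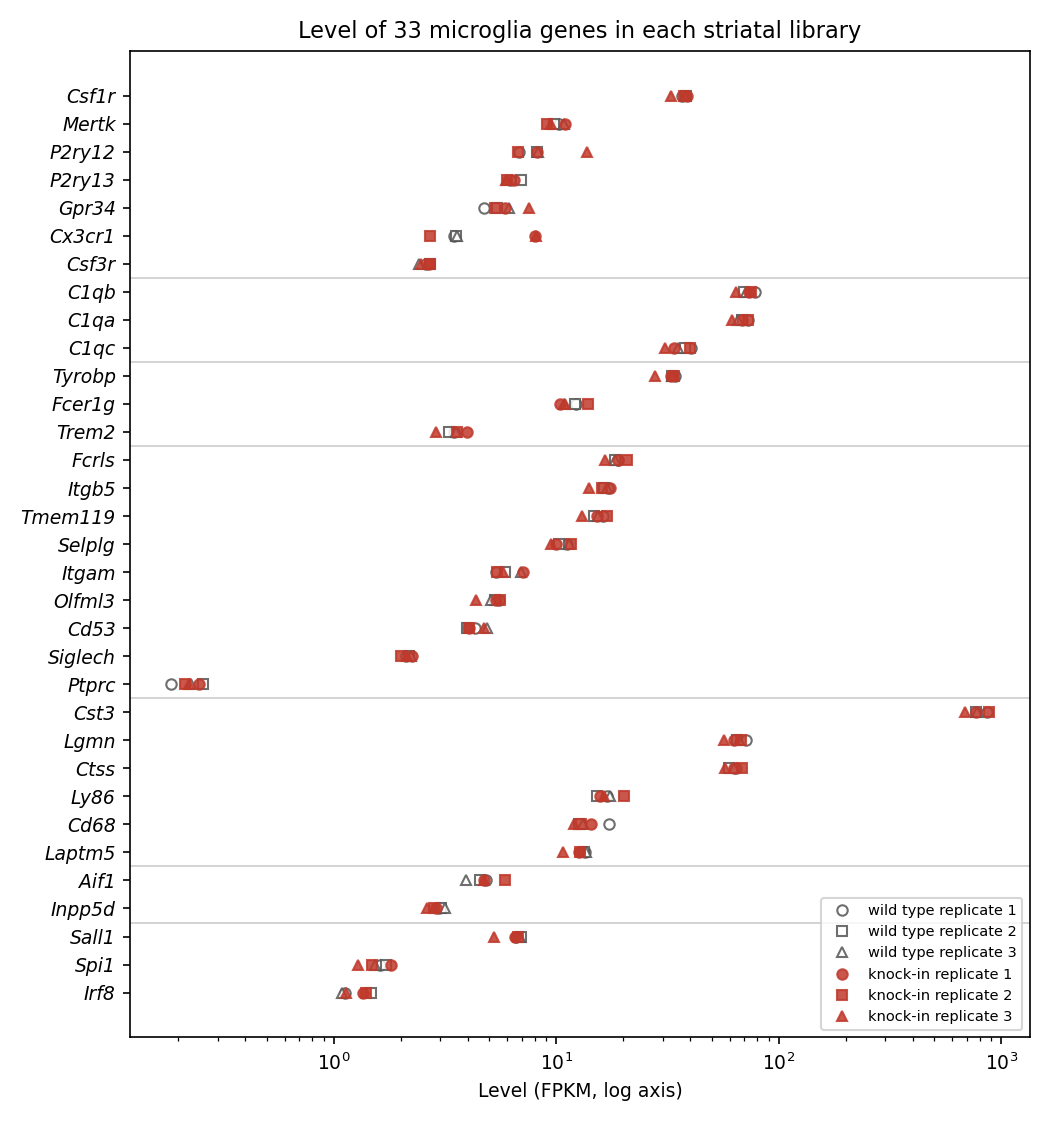
Level of the 33 genes in each library in FPKM on a log axis, grouped by role, with open symbols for wild type and filled red symbols for knock-in. Symbols of the 6 libraries lie close together for most genes, while Cx3cr1, P2ry12 and Gpr34 spread more widely.

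Among the surface receptors, Csf1r, the receptor for the growth factors CSF1 and IL-34, was steady. It was at 36.8, 38.3 and 37.9 FPKM in wild type replicates 1 to 3 and at 38.8, 37.6 and 32.8 FPKM in knock-in replicates 1 to 3. Knock-in replicate 3 was the lowest library, the other 5 lay close together, and the groups overlapped. The log2 difference was -0.05 (SE 0.07, adjusted p = 0.997 in limma).

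Cx3cr1, the receptor for the neuronal chemokine fractalkine, behaved otherwise. It was at 3.47, 3.56 and 3.58 FPKM in the 3 wild-type libraries and read 8.002, 2.70 and 8.11 FPKM in the knock-in libraries, in the order of replicates 1, 2 and 3. Replicates 1 and 3 of the knock-in group were thus far above wild type and nearly equal to each other, while knock-in replicate 2 was below every wild-type library. The wild-type mean was 3.53 ± 0.0554 FPKM and the knock-in mean 6.27 ± 3.09 FPKM (SD, n = 3 each). The log2 difference of 0.57 (SE 0.37) was not called (adjusted p = 0.997 in limma), with an interval of the fold from 0.784 to 2.80. Without knock-in replicate 2 the difference was 1.00 and was called (adjusted p = 0.00367 in limma), and without knock-in replicate 1 or 3 it was 0.36 or 0.35 and was not. Knock-in replicate 2 is the library that went the other way, so the call without it is no support for a difference. Only 1.48% of all genes tested had as large a range over the 6 libraries.

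Cx3cr1 (ENSMUSG00000052336) lies on chromosome 9 at 119901616 to 120069879 on GRCm38, with 3 annotated transcripts. Of these, the longest spans 166668 bases and runs past several other genes, while the others span 19614 and 21197 bases. Its exons share no bases with a same-strand gene of the table, and 78 lie opposite the antisense RNA Gm33858, at 0.392 to 0.907 FPKM. Because 1 FPKM value is given per gene, the transcripts could not be told apart.

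P2ry12, the receptor through which microglial processes sense ADP, was shifted in 1 library. It was at 6.79, 8.14 and 8.24 FPKM in wild type and at 8.17, 6.75 and 13.7 FPKM in knock-in replicates 1 to 3. Knock-in replicate 3 stood alone at the top and the other 5 libraries overlapped. The log2 difference of 0.22 (SE 0.24) was not called (adjusted p = 0.997 in limma) and turned to -0.05 without that library. A range over libraries as large as that of P2ry12 was found in 3.39% of the genes tested.

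Its neighbour on chromosome 3, P2ry13, another receptor for ADP, did not show this. P2ry13 was at 6.16, 6.91 and 5.97 FPKM in wild type and at 6.44, 6.02 and 5.97 FPKM in knock-in. The ratio of P2ry12 to P2ry13 was 1.10 to 1.38 in 5 libraries and 2.30 in knock-in replicate 3. Both genes overlap Med12l, a gene of the opposite strand, which was at 2.87 FPKM in knock-in replicate 3 and at 1.42 to 2.90 FPKM in the others.

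Gpr34, a receptor for lysophosphatidylserine, was also highest in knock-in replicate 3. It was at 4.71, 5.39 and 6.11 FPKM in wild type and at 5.87, 5.32 and 7.51 FPKM in knock-in replicates 1 to 3, so that knock-in replicates 1 and 2 lay within the wild-type range. The log2 difference was 0.17 (SE 0.13, adjusted p = 0.997 in limma). Cx3cr1, P2ry12 and Gpr34 were the 3 members above the wild-type range in that library.

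Mertk, a receptor kinase for apoptotic cells that astrocytes also make, ranged from 9.07 to 11.0 FPKM. Csf3r, the receptor for granulocyte colony-stimulating factor, ranged from 2.41 to 2.71 FPKM. Neither separated the genotypes.

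**Figure D3:**
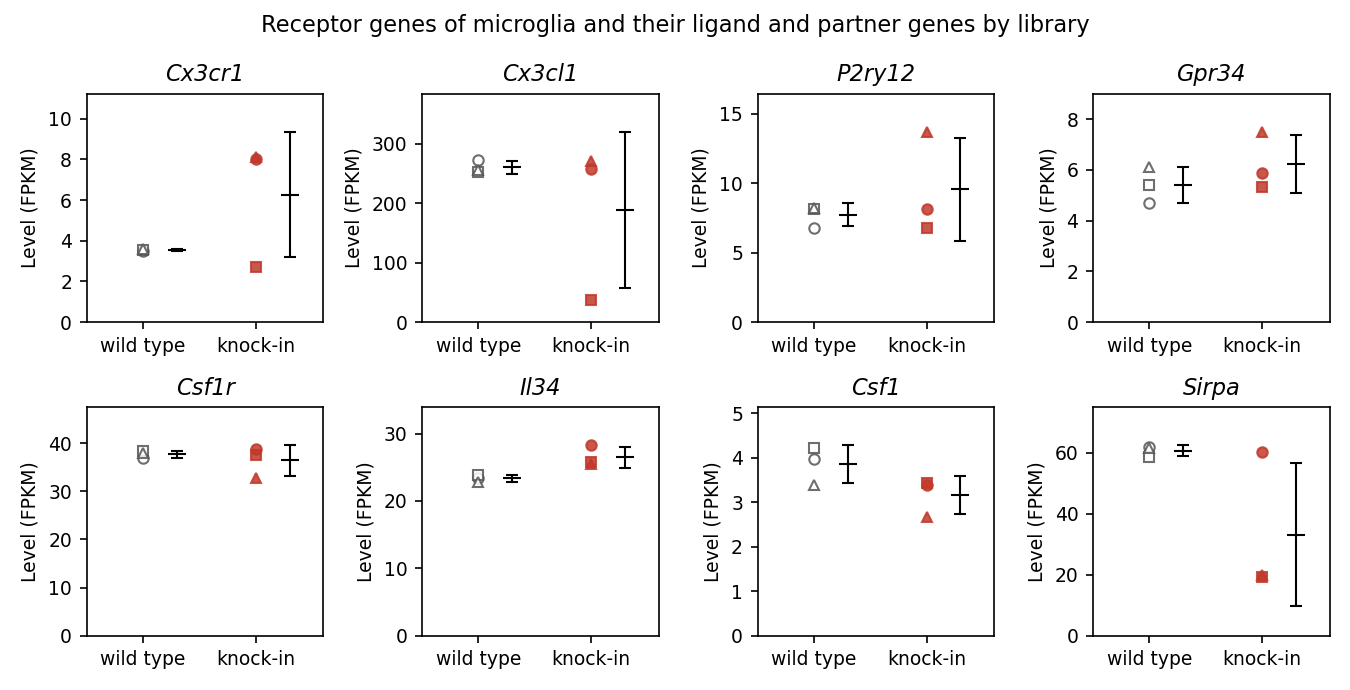
Level in FPKM of 4 microglial receptor genes and of 4 ligand or partner genes in each library, with group mean and SD beside the points (n = 3 each; circle, square and triangle for replicates 1, 2 and 3). Cx3cr1 has knock-in points at 8.002 and 8.11 FPKM and another at 2.70 FPKM, and Cx3cl1 has 1 knock-in point at 36.6 FPKM below the rest.

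The ligands of these receptors were read from a separate list of 19 ligand and partner genes, of which 17 were tested, 5 higher and 12 lower, with 0 called and a median of -0.07. Il34, which encodes the neuronal ligand of Csf1r, was at 23.3, 23.9 and 22.8 FPKM in wild type and at 28.3, 25.7 and 25.4 FPKM in knock-in. All knock-in libraries lay above all wild-type libraries, as in 2.92% of the genes tested. The log2 difference of 0.17 (SE 0.06) had an unadjusted p of 0.0246 and was not called (adjusted p = 0.997 in limma).

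Csf1, the other ligand of Csf1r, leaned the other way. It was at 3.96, 4.21 and 3.37 FPKM in wild type and at 3.38, 3.43 and 2.67 FPKM in knock-in, so that the groups overlapped only through wild type replicate 3. The log2 difference of -0.22 (SE 0.10) was not called (adjusted p = 0.997 in limma).

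Cx3cl1 encodes fractalkine, the ligand of Cx3cr1. It was at 273, 252 and 257 FPKM in wild type and at 258, 36.6 and 271 FPKM in knock-in replicates 1 to 3. Knock-in replicate 2 was thus 7.46 times below the highest library, and the others lay close together. This is the same library in which Cx3cr1 was lowest. A range this large was found in 0.134% of the genes tested, and the log2 difference of -0.92 (SE 0.83) was not called (adjusted p = 0.997 in limma).

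Sirpa, the receptor that restrains phagocytosis when it binds CD47, also had abrupt shifts. It was at 61.7, 58.6 and 61.6 FPKM in wild type, still at 60.2 FPKM in knock-in replicate 1, and only 19.3 FPKM in replicate 2 and 19.8 FPKM in replicate 3 of that group. Its ligand gene Cd47 ranged from 22.9 to 29.8 FPKM with knock-in replicate 3 highest. Itgav, the integrin alpha subunit that pairs with Itgb5, was at 5.83 FPKM in knock-in replicate 3 and at 1.88 to 2.51 FPKM elsewhere. The libraries that were shifted thus differed from gene to gene, and neither Sirpa (log2 difference -1.06, adjusted p = 0.997) nor Itgav (0.26, adjusted p = 0.997 in limma) was called. Without knock-in replicate 1, Sirpa was called, with a log2 difference of -1.58 (adjusted p = 0.00135 in limma). That library is the knock-in library that stayed near wild type, so the call without it is no support for a difference. As for Cx3cr1, the single value per gene does not show which transcripts lie behind the levels of P2ry12, Cx3cl1, Sirpa and Itgav, so a shift of the gene and a shift in how its transcripts were assembled cannot be told apart.

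Ligands of Mertk and factors that sustain microglia showed no such jumps. Gas6 ranged from 29.3 to 36.5 FPKM and Pros1 from 2.97 to 3.57 FPKM, each lowest in knock-in replicate 3. Tgfb1, a cytokine microglia depend on, ranged from 1.07 to 1.41 FPKM, and its receptor gene Tgfbr1 from 4.06 to 5.03 FPKM.

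C1q starts the classical complement pathway and is assembled from 3 chains, encoded by adjacent genes on chromosome 4. C1qa (136895917 to 136898803, GRCm38) was at 72.9, 68.6 and 65.4 FPKM in wild type and at 68.4, 72.4 and 61.6 FPKM in knock-in. C1qb (136880129 to 136886187) was at 77.9, 70.0 and 71.3 FPKM in wild type and at 73.1, 74.8 and 64.1 FPKM in knock-in. C1qc (136889804 to 136893065) was at 40.2, 37.9 and 35.2 FPKM in wild type and at 33.9, 39.8 and 30.9 FPKM in knock-in.

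For each chain, wild type replicate 1 was the highest library, knock-in replicate 3 the lowest, and the groups overlapped. The chains kept close proportions within a library. The ratio of C1qb to C1qa was 1.02 to 1.09, that of C1qc to C1qa 0.496 to 0.552 and that of C1qc to C1qb 0.465 to 0.541. The log2 differences were -0.03 (SE 0.08) for C1qa, -0.05 (SE 0.08) for C1qb and -0.12 (SE 0.10) for C1qc, none of them called (adjusted p = 0.997 in limma). The intervals of the fold were 0.860 to 1.11, 0.848 to 1.10 and 0.785 to 1.08.

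Of 20 other complement genes listed, 17 had a row and 8 were tested. Of the 8, 1 was higher and 7 were lower, 0 were called, and the median was -0.07. C4b, which encodes the component cleaved next after C1q binds, was at 5.06, 5.28 and 5.25 FPKM in wild type and at 4.37, 4.26 and 3.98 FPKM in knock-in. Serping1, which encodes the inhibitor of the C1 proteases, was at 2.51, 2.49 and 2.72 FPKM in wild type and at 2.17, 2.23 and 2.05 FPKM in knock-in.

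For both genes all knock-in libraries lay below all wild-type libraries, as in 6.58% of the genes tested. The log2 differences were -0.25 (SE 0.06, unadjusted p = 0.00359) and -0.18 (SE 0.06, unadjusted p = 0.0240), and neither was called (adjusted p = 0.997 for each in limma). In this respect they differed from the C1q genes, whose groups overlapped, although the difference between them was not tested. C3, the central complement component, was at 0.0444 to 0.149 FPKM, too low to be tested.

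Regulatory sequence is shown for 4 members, because the transcription factor PU.1, encoded by the member Spi1, drives many myeloid genes. C1qb and C1qc are neighbours that encode chains of C1q. Inpp5d is a gene whose groups did not overlap, and Ctss is one of the most abundant members. Promoter windows of 250 bases before the start site were taken from RefSeq on GRCm38.p6, which held entries for 26 of the 33 genes. C1qb (chr4:136886201-136886450, minus strand), Inpp5d (chr1:87620062-87620311, plus strand) and Ctss (chr3:95526536-95526785, plus strand) are printed in full. For C1qc (chr4:136893066-136893164, minus strand) the 99 bases outside annotated exons are printed. Capitals mark AGGAAGT, the core of the PU.1 motif, or its reverse complement ACTTCCT, and sequences run 5′ to 3′ on the strand of the gene.
C1qb: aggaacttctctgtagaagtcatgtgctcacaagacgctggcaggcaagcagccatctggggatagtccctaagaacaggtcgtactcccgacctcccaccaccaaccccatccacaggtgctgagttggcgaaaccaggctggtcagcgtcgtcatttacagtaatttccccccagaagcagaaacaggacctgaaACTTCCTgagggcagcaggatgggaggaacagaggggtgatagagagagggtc
C1qc: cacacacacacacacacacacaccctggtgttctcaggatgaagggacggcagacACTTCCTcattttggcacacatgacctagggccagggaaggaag
Inpp5d: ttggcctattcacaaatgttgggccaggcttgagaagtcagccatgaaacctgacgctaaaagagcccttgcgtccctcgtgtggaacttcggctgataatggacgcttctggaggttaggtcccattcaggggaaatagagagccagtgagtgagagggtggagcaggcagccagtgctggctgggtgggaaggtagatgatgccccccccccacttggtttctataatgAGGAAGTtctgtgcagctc
Ctss: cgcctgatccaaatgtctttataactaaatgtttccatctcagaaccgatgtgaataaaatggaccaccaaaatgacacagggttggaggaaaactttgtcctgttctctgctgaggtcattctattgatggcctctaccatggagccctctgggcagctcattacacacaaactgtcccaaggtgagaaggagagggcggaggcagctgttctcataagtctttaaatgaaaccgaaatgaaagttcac

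Counted from the RefSeq start site, the match began at -53 in C1qb, -195 in C1qc and -19 in Inpp5d, and Ctss had none in this window. For C1qc, 151 of the 250 window bases lie in GENCODE exons. The GENCODE start of C1qc, at 136893065, directly follows the printed bases, so the match lies closer to that start. On either strand AGGAAGT was found for 7 of the 26 members with an entry, C1qb, C1qc, Fcrls, Inpp5d, P2ry12, Ptprc and Sall1, and for 8.80% of all 27025 genes in the table. The longer form GAGGAAGT was found for 2 of the 26 and 2.79% of all genes, and the shorter forms GGAAGT and GAGGAA, which overlap it, for 9 and 15 of the 26 and for 22.2% and 25.9% of all genes. The printed windows are examples and do not stand for the members. Laptm5, whose groups did not overlap either, held no AGGAAGT in its window. A match is a description of letters and not evidence of binding.

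Trem2, Tyrobp and Fcer1g belong to signalling through the immunoreceptor tyrosine-based activation motif (ITAM). TREM2 is a lipid-sensing receptor, and TYROBP and FCER1G are adaptors that carry the motif. Tyrobp was at 34.1, 33.1 and 33.1 FPKM in wild type and at 32.6, 33.7 and 27.8 FPKM in knock-in. Trem2 was at 3.46, 3.29 and 3.55 FPKM in wild type and at 3.96, 3.58 and 2.87 FPKM in knock-in. For both, knock-in replicate 3 was the lowest library, while Trem2 in knock-in replicates 1 and 2 lay above the wild-type range.

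The Tyrobp transcript exceeded that of Trem2 by 8.24 to 10.1 times in each library. Fcer1g ranged from 10.4 to 13.9 FPKM, lowest in knock-in replicate 1 and highest in knock-in replicate 2. The log2 differences were -0.09 for Tyrobp, 0.01 for Trem2 and -0.01 for Fcer1g. None was called, with adjusted p = 0.997, adjusted p = 0.998 and adjusted p = 0.997 in limma.

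Downstream of these adaptors, 8 of 12 listed ITAM signalling genes were tested. All 8 had a lower mean in knock-in, with a median of -0.05 and 0 called, and 7 of the 8 were below the wild-type range in knock-in replicate 3. Without that library the median was -0.0055. Lyn, a Src-family kinase, ranged from 2.24 to 3.05 FPKM. Syk, the kinase that docks on the motif, was at 0.581 to 0.756 FPKM and was not tested.

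Among 9 surface and adhesion molecules, Tmem119, a transmembrane protein used to tell microglia from blood macrophages, was at 16.2, 14.8 and 15.3 FPKM in wild type and at 15.2, 16.9 and 13.03 FPKM in knock-in. Fcrls, an Fc receptor-like molecule of microglia, was at 19.0, 18.4 and 18.3 FPKM in wild type and at 19.0, 20.8 and 16.5 FPKM in knock-in. Both were highest in knock-in replicate 2 and lowest in knock-in replicate 3. Tmem119 stayed at 0.387 to 0.449 times the level of Csf1r in every library.

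Selplg, the ligand for P-selectin, and Olfml3, a secreted matrix protein, showed the same low point, at 9.48 FPKM against 10.0 to 11.7 FPKM and at 4.35 FPKM against 5.09 to 5.56 FPKM. Itgb5, an integrin beta subunit, was at 14.1 FPKM there and at 16.0 to 17.5 FPKM elsewhere. Itgam (CD11b, the alpha chain of complement receptor 3), Cd53 (a tetraspanin) and Siglech (a sialic acid-binding lectin) did not follow it. Itgam ranged from 5.38 to 7.10 FPKM, Cd53 from 3.95 to 4.88 FPKM and Siglech from 1.99 to 2.25 FPKM, and in knock-in replicate 3 each lay within the wild-type range.

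Of the lysosomal and phagocytic genes, Laptm5, a lysosomal membrane protein, gave the smallest p of any member. It was at 13.4, 13.3 and 13.6 FPKM in wild type and at 12.7, 12.7 and 10.8 FPKM in knock-in. All knock-in libraries lay below all wild-type libraries, and knock-in replicate 3 was lowest by a margin. The means were 13.4 ± 0.182 and 12.0 ± 1.12 FPKM (SD, n = 3 each), and the log2 difference of -0.15 (SE 0.07) was not called (unadjusted p = 0.0802, adjusted p = 0.997 in limma).

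Inpp5d, the inositol phosphatase SHIP1 that damps ITAM signalling, was the other member without overlap. It was at 2.96, 3.02 and 3.17 FPKM in wild type and at 2.87, 2.83 and 2.61 FPKM in knock-in, with a log2 difference of -0.10 (SE 0.06, adjusted p = 0.997 in limma). The gap between the nearest libraries of the 2 groups was small. The groups did not overlap for 2 of the 32 members, beside 9.51% of all genes tested. Both were lower in knock-in, beside 6.58% of all genes tested, and 0 were higher, beside 2.92%.

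Ctss, the lysosomal protease cathepsin S, was at 64.0, 59.6 and 62.6 FPKM in wild type and at 62.8, 68.0 and 57.2 FPKM in knock-in. Lgmn, the asparaginyl endopeptidase legumain, was at 71.1, 65.2 and 66.4 FPKM in wild type and at 63.0, 67.9 and 56.9 FPKM in knock-in. Cst3 was at 863, 771 and 774 FPKM in wild type and at 770.2, 879 and 687 FPKM in knock-in. In each, knock-in replicate 2 was above knock-in replicates 1 and 3, and the groups overlapped.

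Cd68, a lysosomal glycoprotein often used to gauge phagocytic activity, reached 17.2 FPKM in 1 wild-type library, replicate 1, while the others lay between 12.0 and 14.4 FPKM, with knock-in replicate 3 lowest. Ly86, a partner of the Toll-like receptor RP105, was at 20.1 FPKM in knock-in replicate 2 and at 15.3 to 17.4 FPKM elsewhere. Aif1, the actin-binding protein IBA1 used to stain microglia, was at 4.83, 4.54 and 3.93 FPKM in wild type and at 4.74, 5.86 and 4.72 FPKM in knock-in. Its log2 difference of 0.17 (SE 0.10) was not called (adjusted p = 0.997 in limma), and knock-in replicate 2 was the highest library.

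The transcription factor genes were at low levels. Sall1, which holds microglial identity, was at 6.61, 6.91 and 6.90 FPKM in wild type and at 6.51, 6.74 and 5.24 FPKM in knock-in. Spi1, which encodes PU.1, ranged from 1.28 to 1.81 FPKM, and Irf8, its partner in myeloid development, from 1.09 to 1.47 FPKM. Sall1 and Spi1 were lowest in knock-in replicate 3, and none of the 3 was called (adjusted p = 0.997 for each in limma).

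Across roles, the lower values in knock-in replicate 3 were shared by most members. It was the lowest of the 6 libraries for 20 of the 32 tested genes (62.5%), beside 32.0% of all genes tested, and 21 of the 32 were below the wild-type range there, beside 41.3% of all genes tested. In knock-in replicates 1 and 2 the counts below the wild-type range were 9 and 8, or 28.1% and 25.0%, beside 31.2% and 27.7% of all genes tested. The median deviation of the 32 genes from the wild-type mean, on the log2(FPKM + 1) scale, was -0.16 in knock-in replicate 3, 0.02 in knock-in replicate 1 and 0.01 in knock-in replicate 2, beside -0.01 to 0.02 in the wild-type libraries. Over all genes tested it was -0.04 in knock-in replicate 3.

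**Figure D4:**
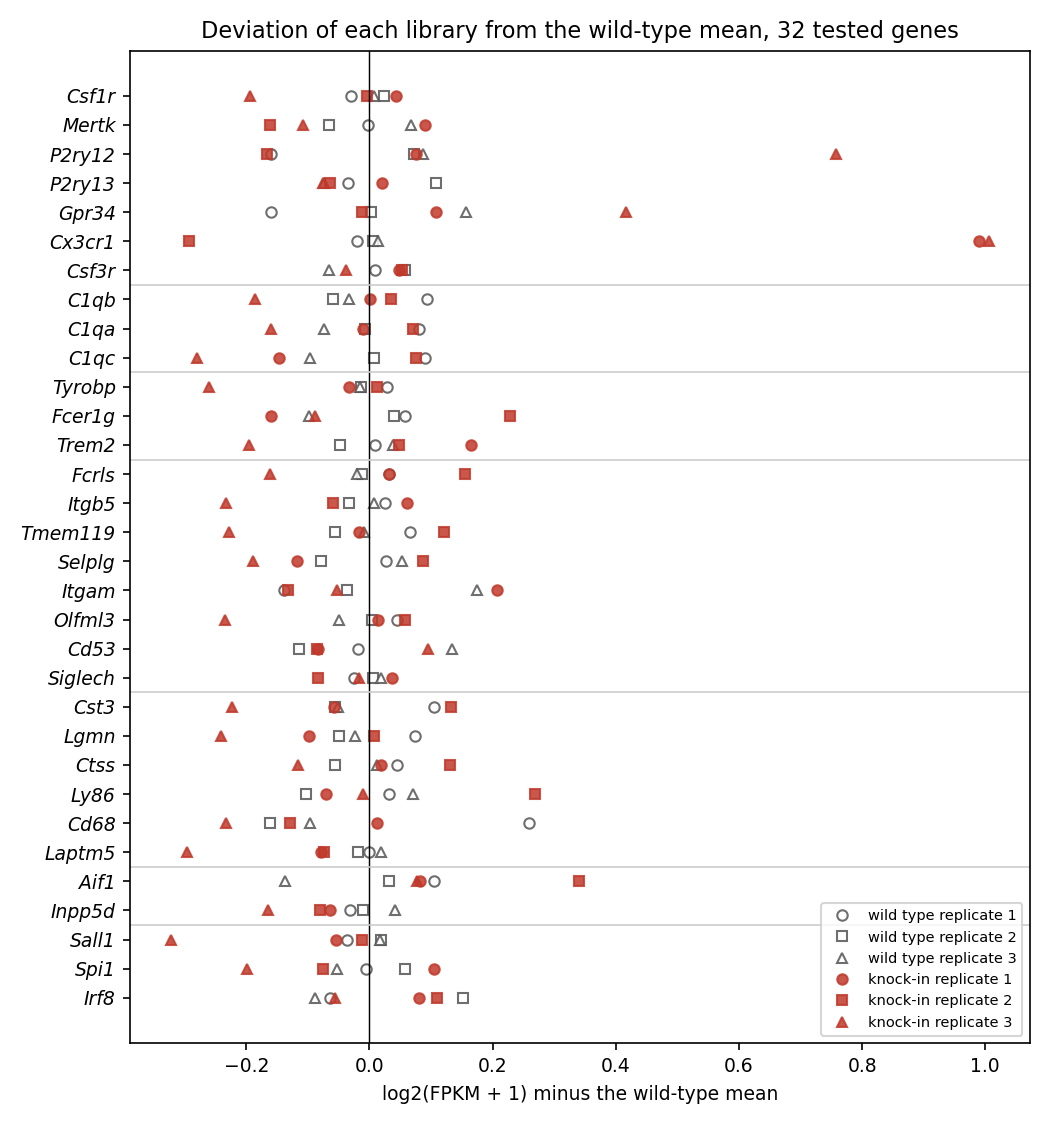
Deviation of each library from the wild-type mean for the 32 tested genes, on the log2(FPKM + 1) scale, with open symbols for wild type and filled red symbols for knock-in. The filled triangles of knock-in replicate 3 lie at the left for 20 genes and at the right for Cx3cr1, P2ry12 and Gpr34.

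Microglia genes outside the 33 were mostly low in that library too. Of 49 listed, 33 were tested, 14 higher and 19 lower, with 0 called and a median of -0.02. Of these 24 were below the wild-type range in knock-in replicate 3, and their median deviation there was -0.11, beside -0.02 to 0.04 in the other 5 libraries. Without it the median difference was 0.03. Bin2, an adaptor of the phagocytic cup, was at 2.84 FPKM in knock-in replicate 3 and Abi3, an actin regulator, at 1.39 FPKM, both below their ranges in the other libraries of 3.07 to 3.75 and 1.78 to 2.48 FPKM.

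Genes of other cell types were also shifted in that library, and their part in the microglial values was not tested. Median deviations in knock-in replicate 3 were -0.14 for astrocytes (16 genes), -0.12 for endothelial and mural cells (15 genes), -0.32 for oligodendrocyte precursors (12 genes), -0.37 for myelinating oligodendrocytes (15 genes) and -0.81 for blood cells (6 genes), and 0.13 for striatal projection neurons (14 genes). Below the wild-type range there were 13 of 16 astrocyte, 15 of 15 myelinating oligodendrocyte and 0 of 14 projection neuron genes. The oligodendrocyte lists were below 0 in the other knock-in libraries too. In knock-in replicates 1 and 2 their medians were -0.15 and -0.08 for myelinating oligodendrocytes and -0.14 and -0.07 for the precursor list. In wild-type libraries these medians ran from -0.12 to 0.08 and from -0.02 to 0.05. The summed level of the 33 members was 1203 FPKM in knock-in replicate 3, against 1340 and 1469 FPKM in the other knock-in libraries. Wild-type sums ran from 1332 to 1455 FPKM. Cst3 alone gave 687 of the 1203 FPKM and 879 of the 1469 FPKM, so these sums largely followed that gene. With Cst3 left out, knock-in replicate 3 stood at 517 FPKM, below a wild-type span of 561 to 592 FPKM. The other knock-in libraries, at 570 and 591 FPKM, then fell inside that span.

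**Figure D5:**
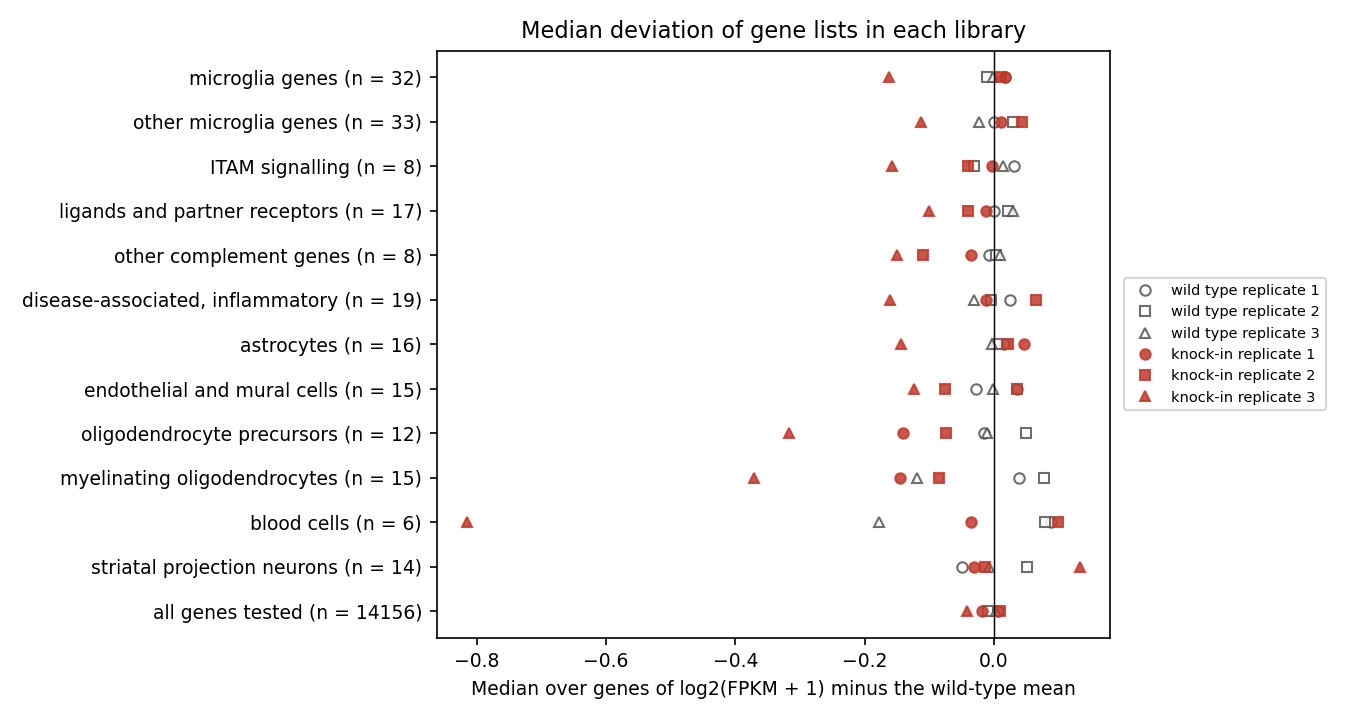
Median over the genes of each list of the deviation from the wild-type mean, on the log2(FPKM + 1) scale, in each library, with the number of tested genes beside each name. In knock-in replicate 3 the microglia median is -0.16, and the glial and vascular lists are also below 0. Blood cells, mostly red-cell genes, are at -0.81 there and projection neurons at 0.13.

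Other macrophages and blood leukocytes could share members with microglia. Of 14 border macrophage genes, 13 had a row and 3 were tested. Mrc1, their mannose receptor, was at 0.551 to 0.742 FPKM and Lyve1, a hyaluronan receptor, at 0.138 to 0.200 FPKM, and the summed level of the list lay between 8.28 and 9.62 FPKM for wild type and between 8.30 and 8.91 FPKM for knock-in. Of 23 blood cell genes, 11 had a row and 6 were tested, and the list, mostly haemoglobin genes by level, summed to 1139 to 1448 FPKM in wild-type libraries, to 1315 and 1482 FPKM in knock-in replicates 1 and 2 and to 763 FPKM in knock-in replicate 3. Ly6c2, the only tested gene of the list not of red cells, was at 1.51 FPKM in knock-in replicate 3. In the other libraries it was at 1.65 to 1.72 FPKM. The low sum in knock-in replicate 3 is thus one of red-cell genes and says little about leukocytes. Ccr2, the chemokine receptor of inflammatory monocytes, did not exceed 0.0828 FPKM in any library.

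Genes of disease-associated and inflammatory microglia were examined last. Of 31 listed, 27 had a row and 19 were tested, 7 higher and 12 lower, with 0 called and a median of -0.01, or 0.03 without knock-in replicate 3. Cst7, Clec7a and Itgax, which are induced markers, were near 0 in both genotypes, at most 0.173, 0.214 and 0.0699 FPKM in any library. They do not stand for the list, as the 19 genes tested averaged 1 FPKM or more. Spp1, another induced marker, was at 1.91, 2.17 and 2.16 FPKM in wild type. In knock-in replicates 1 to 3 it was at 3.01, 2.13 and 1.24 FPKM. A range this large was found in 4.14% of the genes tested. The log2 difference of Spp1, -0.02, was not called (adjusted p = 0.997 in limma). Apoe, a lipid carrier that astrocytes make in large amounts, was at 459, 397 and 409 FPKM in wild type and at 398, 434 and 325 FPKM in knock-in. Lpl, a lipoprotein lipase, was at 8.68, 8.64 and 8.76 FPKM in wild type and at 9.03, 9.37 and 10.9 FPKM in knock-in. It was higher without overlap, as in 2.92% of the genes tested, and was the only gene of the 19 to be so. Its log2 difference of 0.15 was not called (adjusted p = 0.997 in limma).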

How the data were processed

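Bulk RNA-seq of dorsal striatum was read from 1 deposited table of FPKM values, made by the authors. Per the labels' protocols, tissue was kept in RNAlater and RNA was extracted with a miRNeasy kit before TruSeq library preparation. The submitters' processing notes name FastQC, HISAT2, SAMtools and StringTie, while genome build, annotation and strand setting were not given in the sources used here. Read depth is unknown, and summed FPKM was 314146 to 335508 per library.

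Wild type and knock-in (3 libraries each, grouped by the sample titles and genotype labels) were fitted on log2(FPKM + 1), with trended and robust variance (limma 3.58.1, R 4.3.3), over genes averaging 1 FPKM or more, and p-values were adjusted by Benjamini-Hochberg over all of them. The fit was tested on simulated data. Fold intervals are at 95%. Positions come from GENCODE M21 and promoters from RefSeq, matched by gene ID and by symbol. Other pseudocounts, filters, scalings, variance settings, a replicate block and leaving out each library were tried.

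The members and lists were chosen with earlier results of these data known, including the shift of Cx3cr1. All members are described, and from each other list those with the smallest p in each direction and set ligands and partners of the members. Slc17a7, Xist, the Y-linked genes, Mrc1, Lyve1, Ccr2, Ly6c2, Pdgfra, Cst7, Clec7a, Itgax and Spp1 were named outside that rule. They were chosen as markers, after their values were seen.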

Additional observations from a re-analysis of the deposited data

How the results depend on the processing

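The 32 microglia genes tested had 0 calls in limma under 13 of 14 alternatives, and 12 of the 32 kept the sign of their difference under each alternative that tested them. The exception was Cx3cr1, called without knock-in replicate 2 at a difference of 1.00 (adjusted p = 0.00367), so that leaving out 1 library gave 0 to 1 calls among the members. In the other 13 alternatives no member had an adjusted p under 0.874. Their median log2 difference, -0.04, was -0.0221 under median-of-ratios scaling and -0.0700 to 0.0189 when 1 library was left out, highest without knock-in replicate 3. Over all genes, 3 were called, and 3 to 15 when 1 library was left out, most without knock-in replicate 2. Among the genes of the other lists 0 were called, and 0 to 1 when 1 library was left out, the call being Sirpa without knock-in replicate 1. The Cx3cr1 and Sirpa calls each arose when the knock-in library unlike the rest of its group was left out, so neither is support for a difference.

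With the replicate number as a block, 2 genes were called, 0 of them members, and the members' median was -0.04. Whether the numbers pair the samples was not settled. Deviations of same-numbered libraries from their group means correlated at -0.01, -0.07 and 0.19, within the range of -0.18 to 0.21 for the other pairs. Such correlations, from 3 libraries per group, cannot exclude a shared origin. The read depth is unknown, so the precision of low members such as Ptprc cannot be stated from counts.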
